A study of Caenorhabditis elegans with 3 samples.

Results

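The genes described are 10 body-shape collagens of Caenorhabditis elegans that are not counted among the collagens of the cuticle furrows: dpy-4, dpy-5, dpy-13, dpy-14, dpy-17, rol-6, rol-8, sqt-1, sqt-3 and lon-3. They were chosen by symbol, and 9 of the 10 had a single-gene array feature with a value on all 3 arrays, out of 19300 genes and unnamed features (15112 of them single genes). No feature was matched to dpy-14 by symbol or gene identifier, so it was not analysed here. Each of the other 9 was read by 1 feature. The samples, labelled TP10 adult w/ emb 1 and read here as adults with embryos, were compared on 3 two-colour arrays with a wild-type mixed reference. The labels spell out neither TP10 nor what the reference mixed, and they give no genotype, age or treatment for TP10. Each array held RNA of 1 of 3 numbered preparations in channel 2 and the reference in channel 1. Separate cultures are not stated for them, so p-values speak only for these preparations, whose differences can be technical variation. The p-values also draw on a variance shared between genes.

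The cuticle of the worm is an extracellular coat of collagens made by the epidermis. A new coat is made in the embryo and again before each moult, and adults no longer moult. Its collagens are short chains with Gly-X-Y repeats that form trimers, are hydroxylated on proline, are trimmed by proteases during export and are crosslinked in the matrix. Mutants of single collagens give the visible body shapes that named these genes: dumpy animals are short and fat, rollers rotate around their long axis, squat alleles give dumpy or roller animals depending on allele and dose, and long animals are elongated.

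Values are log2 ratios of TP10 over reference after setting the median of each array to 0. A value of 1 is a 2-fold difference, and higher or lower is always relative to the median gene. No dye is named in the sources used here, so this direction is likely and not settled. It follows the order of the sample descriptions. If it were inverted, every sign below would turn and every size would stand. Of 6 measured genes listed as oocyte markers, 6 were higher, including the yolk receptor gene rme-2 at 2.51 ± 0.37 (SD, n = 3). Another of them, glh-1 at 2.73 ± 0.16, encodes a germ granule component and is not particular to oocytes. Among all genes and features, 21.9% were lower and 22% higher. Of 9 sperm markers, 3 were lower and 1 was higher. Of the 3 measured yolk protein genes of the adult hermaphrodite, vit-2 was higher at 1.00 ± 0.27, and vit-5 and vit-6 did not pass. The samples are read here as whole animals with embryos, so fewer cells of a type and less RNA per cell cannot be told apart. Spot intensities were not used here, and how far collagens with similar repeats share signal on a feature was not tested.

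The body-shape collagens did not move as a block. rol-8, rol-6, dpy-13 and sqt-1 were lower in TP10, by 22-fold, 13.4-fold, 4.11-fold and 2.47-fold. sqt-3, dpy-4, dpy-5, lon-3 and dpy-17 did not pass the test, with means between -0.38 and 0.66 log2. None of the 9 was higher. At an adjusted p under 0.05 (limma, moderated across all genes, Benjamini-Hochberg over all 19300), 4 of 9 were thus lower, where 43.9% of all genes and features passed in either direction, 21.9% lower and 22% higher. All 4 lower members were lower by at least 2-fold, which held for 8.3% of all genes and features, while 8.29% were higher by as much. The calls depend on the variance that limma shares between genes: without it, on 2 residual degrees of freedom, rol-8, rol-6, dpy-13 and sqt-1 had adjusted p of 0.0865, 0.0871, 0.095 and 0.32. The median of the 9 was -0.38 log2, against 0.01 over all genes and features. Their means spread with an SD of 1.86 log2, against 0.77 over all genes and features and 1.54 over the 152 measured cuticle collagens, members included. Of those 152 collagens, 56 were lower and 18 higher by at least 2-fold past the threshold, and their median was -0.48 log2.

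**Figure D1:**
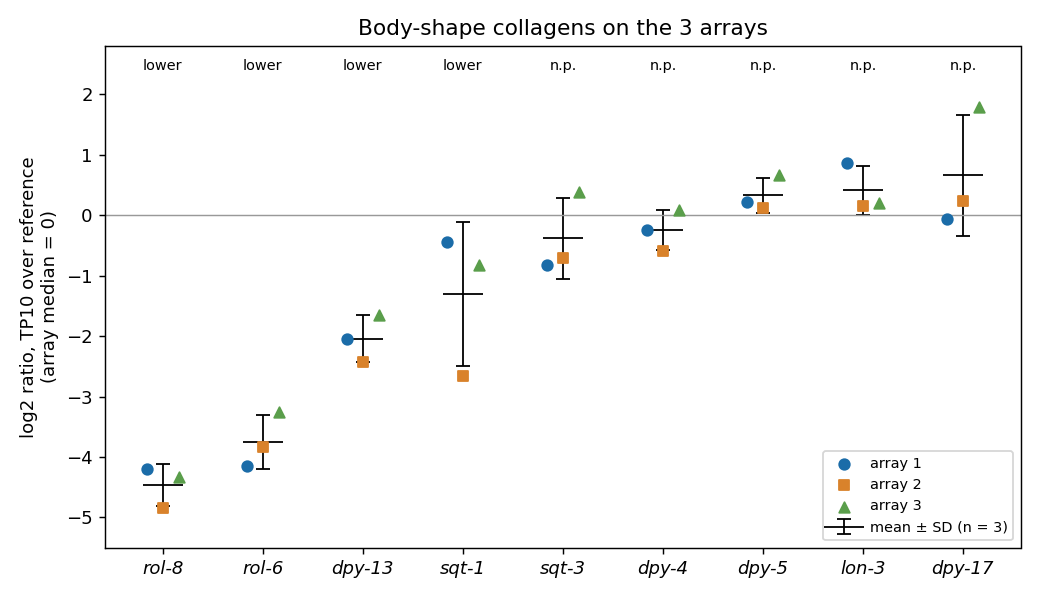
Log2 ratio of TP10 over reference (vertical axis, array median at 0) for the 9 measured body-shape collagens, ordered by mean. Coloured symbols are the 3 arrays, black bars the mean ± SD (n = 3), "lower" marks an adjusted p under 0.05 (limma) and "n.p." genes not past it. rol-8 and rol-6 lie below -3.2 on every array, while sqt-1, sqt-3 and dpy-17 are the genes whose arrays lie furthest apart.

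The roller collagens had the lowest ratios. rol-8, a collagen gene on chromosome II (sequence name ZK1290.3) whose mutants roll, read -4.20 on array 1, -4.85 on array 2 and -4.33 on array 3. All 3 values were far below 0, and the mean of -4.46 ± 0.35 (SD, n = 3; 95% interval -4.83 to -4.1) had an adjusted p of 3.36e-07 (limma). It was the 6th lowest mean of all 19300 genes and features. rol-6, also on chromosome II (T01B7.7), is the gene whose dominant roller allele is widely used to mark transgenic worms. It read -4.15, -3.83 and -3.26 on arrays 1, 2 and 3. Its mean of -3.75 ± 0.45 (95% interval -4.15 to -3.34, adjusted p = 1.06e-06, limma) was the 16th lowest. Values of rol-6 and rol-8 did not overlap. Their paired difference was only 0.05 log2 on array 1 and 1.02 and 1.07 on arrays 2 and 3, a mean of 0.71 ± 0.57.

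The squat collagens were less steady. sqt-1 (chromosome II, B0491.2) is linked to rol-6 by genetics, since loss of sqt-1 suppresses the rolling of rol-6 mutants. It read -0.44, -2.66 and -0.82 on arrays 1, 2 and 3. It was below 0 on every array, but array 2 lay far below the others. Its mean was -1.31 ± 1.19 (SD, n = 3; 95% interval -2.06 to -0.55, adjusted p = 0.01, limma), and its SD was at the 99.8th percentile of all genes and features. Without preparation 2 the mean was -0.63 and still past the threshold (adjusted p = 0.0245, limma). With 1 preparation left out, 2 arrays remain, so such calls rest largely on the variance that limma shares between genes. The ratio of sqt-1 exceeded that of rol-6 on each array, by 3.71, 1.17 and 2.44 log2 on arrays 1, 2 and 3.

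sqt-3 (chromosome V, F23H12.4) encodes a collagen needed already in the embryo, and the export of its protein depends on DPY-17. It read -0.83, -0.70 and 0.39 on arrays 1, 2 and 3. Arrays 1 and 2 were alike and below 0, and array 3 was above 0. The mean was -0.38 ± 0.67 (SD, n = 3; 95% interval -0.87 to 0.12) and did not pass (adjusted p = 0.203, limma). Without preparation 3 it was -0.76 and passed as lower (adjusted p = 0.00579, limma).

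dpy-17 (chromosome III, F54D8.1), the partner of sqt-3 in export, read -0.06, 0.24 and 1.79 on arrays 1, 2 and 3. Arrays 1 and 2 lay near 0 and array 3 stood well above them. The mean of 0.66 ± 1.00 (SD, n = 3; 95% interval 0.00 to 1.31) was the highest of the 9 and did not pass (adjusted p = 0.0987, limma). It passed as higher without preparation 1 at 1.01 (limma, adjusted p = 0.0308) and without preparation 2 at 0.86 (limma, adjusted p = 0.0192). Without preparation 3 it stood at 0.09 (limma, adjusted p = 0.782). The values left without preparation 2 were -0.06 and 1.79, of opposite sign, so that call rests on the shared variance. The ratio of dpy-17 exceeded that of sqt-3 on every array, by 0.77, 0.93 and 1.40 log2, a mean of 1.03 ± 0.33. Both genes were thus highest on array 3, as were 57.9% of the 152 measured cuticle collagens, members included. The gap between them kept its sign, as in 29 of the 36 pairs of members, but their values overlapped. With the arrays scaled to one median absolute deviation, the gap was 0.61, 0.94 and 1.85 log2, a mean of 1.13 ± 0.64. This scaling was chosen after seeing the data.

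The other measured dumpy collagens stood at different heights. dpy-13 (chromosome IV, F30B5.1), whose product is known from the annuli, the ridges between furrows, read -2.04, -2.43 and -1.65 on arrays 1, 2 and 3. All 3 values were below -1.6, and the mean of -2.04 ± 0.39 (SD, n = 3; 95% interval -2.42 to -1.66) had an adjusted p of 1.47e-05 (limma). dpy-5 (chromosome I, F27C1.8), a procollagen gene whose loss gives strongly dumpy animals, read 0.21, 0.12 and 0.66. It was above 0 on every array with a mean of 0.33 ± 0.29 (95% interval -0.02 to 0.68) that did not pass (adjusted p = 0.119, limma). dpy-4 (chromosome IV, Y41E3.2) read -0.24, -0.59 and 0.08 and had a mean of -0.25 ± 0.33 (95% interval -0.61 to 0.11, adjusted p = 0.248, limma). All 3 genes were lowest on array 2 and highest on array 3. dpy-4 stood above dpy-13 by 1.80, 1.84 and 1.73 log2 on arrays 1, 2 and 3, or 1.79 ± 0.06. dpy-5 stood above dpy-4 by 0.58 ± 0.13 and above dpy-13 by 2.37 ± 0.16. Of 36 pairs of members, these were the 3 with an SD of the paired difference under 0.2. That cut was not set in advance, the next smallest SD was 0.23, and shares for pairs of other genes were not computed. The small SDs of these 3 pairs depended on the spread of the arrays. With the arrays scaled to one median absolute deviation, a setting chosen after seeing the data, the SDs were 0.42 for dpy-4 and dpy-13, 0.22 for dpy-4 and dpy-5 and 0.63 for dpy-5 and dpy-13, and dpy-13 was highest on array 1.

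lon-3 (chromosome V, ZK836.1) is the long member: its loss lengthens the animal and extra copies make it dumpy. It read 0.86, 0.16 and 0.20 on arrays 1, 2 and 3, above 0 on each and highest on array 1. The mean was 0.41 ± 0.40 (SD, n = 3; 95% interval 0.02 to 0.79) and did not pass once adjusted over all genes (adjusted p = 0.0823, limma). Leaving out 1 preparation gave means from 0.18 to 0.53, none past the threshold.

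In order of mean, the genes ran rol-8, rol-6, dpy-13, sqt-1, sqt-3, dpy-4, dpy-5, lon-3 and dpy-17. Of the 8 neighbouring pairs in this order, 3 did not overlap in their array values: rol-8 and rol-6, rol-6 and dpy-13, and dpy-4 and dpy-5. The other 5 overlapped, and their order changed sign between arrays. Over all 36 pairs, 25 did not overlap and 29 kept one order on all 3 arrays. Every pair that included rol-8 or rol-6 was among the 25. The order was taken from these same arrays, and shares for pairs of other genes were not computed. After the scaling, rol-8 and rol-6 overlapped, lon-3 and dpy-5 changed places, 24 pairs did not overlap and 29 kept one order. With 3 arrays an exact two-sided sign test of a paired difference cannot go below 0.25, so no pair was tested.

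**Figure D2:**
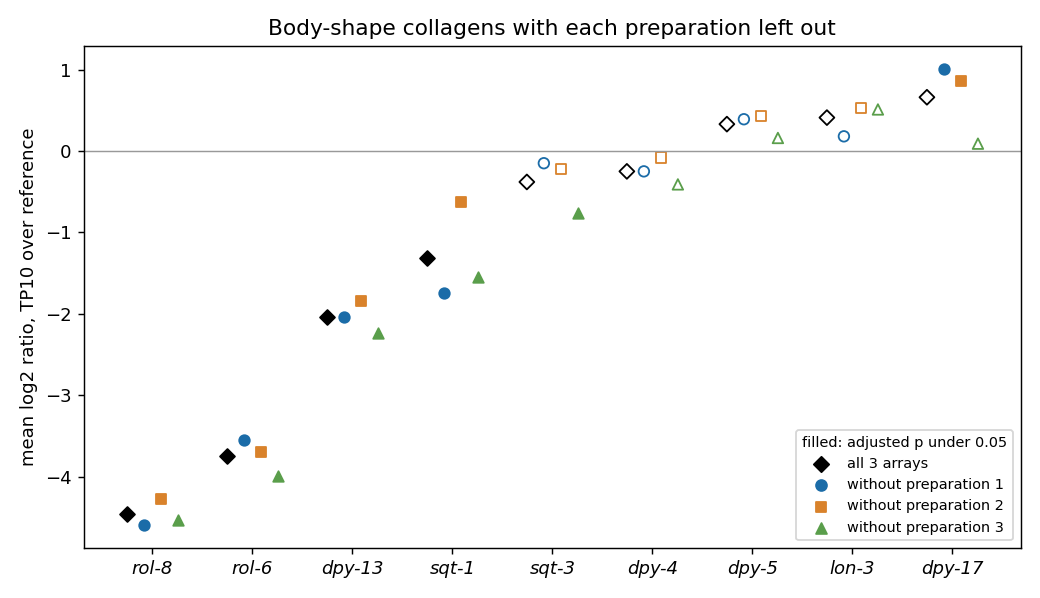
Mean log2 ratio of TP10 over reference (vertical axis) of the 9 body-shape collagens over all 3 arrays and with each preparation left out. Filled symbols have an adjusted p under 0.05 (limma). Each fit without a preparation uses 2 arrays and leans on the variance that limma shares between genes. rol-8, rol-6, dpy-13 and sqt-1 are filled in every fit, sqt-3 only without preparation 3, dpy-17 only without preparation 1 or 2, and dpy-4, dpy-5 and lon-3 in none.

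Of the 9 genes, 6 had their highest ratio on array 3, against 31.1% of all genes and features. They were dpy-4, dpy-5, dpy-13, dpy-17, rol-6 and sqt-3. Of all 152 measured cuticle collagens, body-shape genes included, 57.9% were highest on array 3. The ratios of array 3 were less spread than those of the others, with a median absolute deviation of 0.299 log2 against 0.492 and 0.392 on arrays 1 and 2. As a cause of the ranks on array 3 this spread was not tested. With that deviation made equal on all arrays, 4 members were highest on array 3: dpy-4, dpy-5, dpy-17 and sqt-3. The scaled shares were 47.4% of collagens and 31% of all genes and features. The listed oocyte markers, glh-1 included, had medians of 2.70, 2.35 and 1.79 on arrays 1, 2 and 3. Of these markers, 0 of 6 were highest on array 3. After the scaling their medians were 2.17, 2.36 and 2.36, and 4 of 6 were highest on array 3. Their part in the array differences of the collagens was not tested.

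Among cuticle collagens the 9 genes ran from rank 2 to rank 124 of 152, counted from the lowest. Of the 152, 77 were lower and 31 higher, and the median was -0.48 log2. rol-8 ranked 2nd and rol-6 4th from the lowest. dpy-13 ranked 30th, sqt-1 47th, sqt-3 79th, dpy-4 84th, dpy-5 118th, lon-3 119th and dpy-17 124th. No member reached the level of the highest collagens, which lie up to 3.51 log2 and all carry col symbols. Some col genes are known as markers of a stage. col-19, of the adult, stood at 1.97 ± 0.14 (SD, n = 3) and col-7, also of the adult, at 0.52 ± 0.11. Both passed as higher (limma, adjusted p = 7.1e-06 and 0.0121), and col-7 did not without preparation 2 (limma, adjusted p = 0.0968). col-2, of the dauer larva, was lower at -3.93 ± 0.32, between rol-8 and rol-6 (limma, adjusted p = 5.67e-07).

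**Figure D3:**
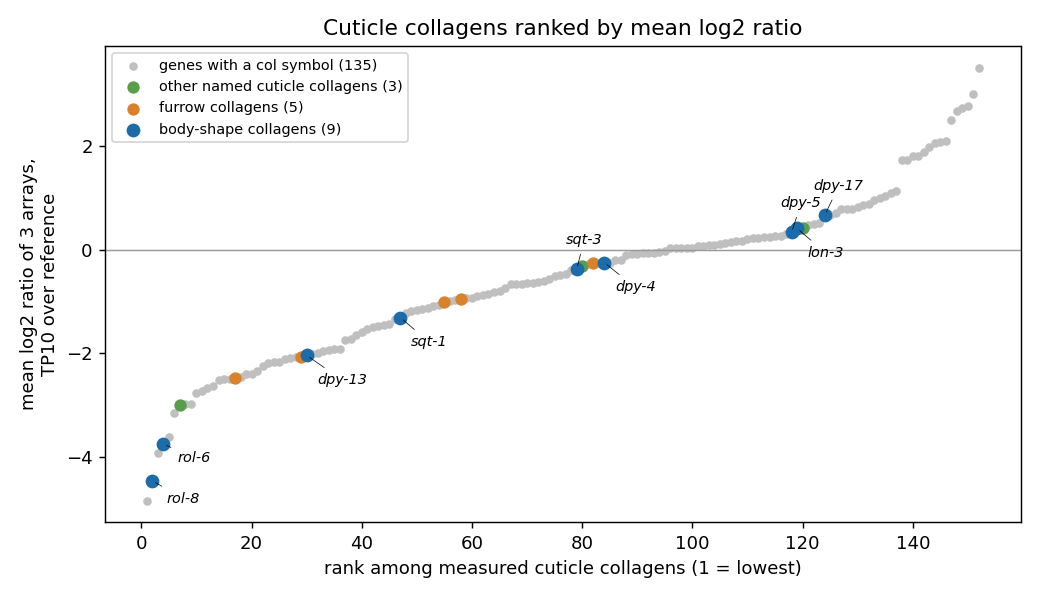
Mean log2 ratio over 3 arrays (vertical axis) of 152 measured cuticle collagens ranked from lowest to highest (horizontal axis). Blue points are the 9 body-shape collagens, orange the 5 furrow collagens, green the 3 other named collagens and grey the 135 genes with a col symbol. Blue points run from rank 2 to rank 124.

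The furrow collagens, which line the circular grooves of the cuticle and also give dumpy mutants, were lower in 4 of 5 measured cases, with a median of -1.02 log2. Of all genes and features, 21.9% were lower and 22% higher, the shares beside which this and the following lists are read. dpy-9 stood at -2.48 ± 0.27 (SD, n = 3), dpy-8 at -2.08 ± 0.23, dpy-2 at -1.02 ± 0.76 and dpy-7 at -0.95 ± 0.37, all past the threshold with an adjusted p of 0.0061 or less (limma). dpy-3 stood at -0.26 ± 0.31 and did not pass (limma, adjusted p = 0.214). The means of the furrow collagens thus ran from -2.48 to -0.26, inside the range of the body-shape collagens. The difference between the lists was not tested. Of 3 other named collagens, sqt-2 was lower at -3.0 ± 0.66 (limma, adjusted p = 7.72e-06). bli-1 and bli-2, named after blisters of the adult cuticle, did not pass, at 0.42 ± 0.37 and -0.31 ± 0.40.

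Of 11 genes for enzymes and factors that modify, export or crosslink collagen, 5 were lower, 3 higher and 3 without a call. The list's median was -0.30 log2. phy-2, a subunit of the prolyl 4-hydroxylase that matures collagen chains, was lower at -1.62 ± 0.50 (SD, n = 3). tmem-131, which recruits collagen for secretion, was higher at 1.16 ± 0.12, and the disulfide isomerase gene pdi-1 was higher at 0.98 ± 0.23. Their adjusted p was between 9.19e-05 and 0.000478 (limma).

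Of 10 genes for proteases and protease inhibitors of the cuticle, 5 were lower, 2 higher and 3 without a call. The list's median was -0.51 log2. dpy-31 encodes the astacin protease that trims the end of SQT-3. It was lower at -0.82 ± 0.12 (SD, n = 3). The astacin gene nas-37, which acts in moulting, was lower at -0.76 ± 0.17, and nas-38 at -0.66 ± 0.11. The adjusted p of these 3 was between 0.000929 and 0.00341 (limma). bli-4, the subtilisin-like protease of collagen processing, was higher at 0.62 ± 0.12 (limma, adjusted p = 0.005); it was chosen after its value was seen.

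The DBL-1 pathway is a TGF-beta signal that sets body length through the epidermis, and lon-3 is tied to it by genetics. Of its 11 measured genes, 8 were lower, none higher and 3 without a call, where 21.9% of all genes and features were lower and 22% higher. The 3 without a call, named after their values were seen, were sma-9 at -0.33 ± 0.07, lon-1 at 0.11 ± 0.29 and lon-2 at 0.21 ± 0.09. The list's median was -0.66 log2. The co-receptor gene sma-10 stood at -1.27 ± 0.07 (SD, n = 3), the Smad gene sma-2 at -1.09 ± 0.27 and the receptor gene sma-6 at -0.87 ± 0.27. The adjusted p of these 3 was between 6.27e-05 and 0.00112 (limma). The ligand gene dbl-1, chosen after its value was seen, was lower at -0.75 ± 0.06. The pathway's ratios were closer to 0 than those of rol-8, rol-6 and dpy-13, since its lowest mean was -1.27.

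Of 9 measured transcription factor genes of epidermis and moulting, 3 were lower, 2 higher and 4 without a call. The list's median was -0.33 log2. Among the lower calls, blmp-1 (chosen after its value was seen), lay at the threshold: its adjusted p of 0.0465 became 0.0501 with the values as deposited, 0.0503 when centred on the mean and 0.0841 to 0.193 without 1 preparation (limma). The nuclear receptor gene nhr-23, which drives moulting cycles, was higher at 1.06 ± 0.39 (SD, n = 3). lin-29, which acts in the switch to the adult epidermis, was lower at -1.03 ± 0.46, and the epidermal GATA factor gene elt-3 was lower at -0.99 ± 0.23. The adjusted p of these 3 was between 0.000437 and 0.00111 (limma). Of 7 measured markers of epidermal junctions and seam cells, 1 was higher, 2 lower and 4 not past, with a median of -0.03 and means from -1.23 to 0.53. Those marker medians were -0.10, -0.22 and 0.05 on arrays 1, 2 and 3, and their part in the collagen ratios was not tested.

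**Figure D4:**
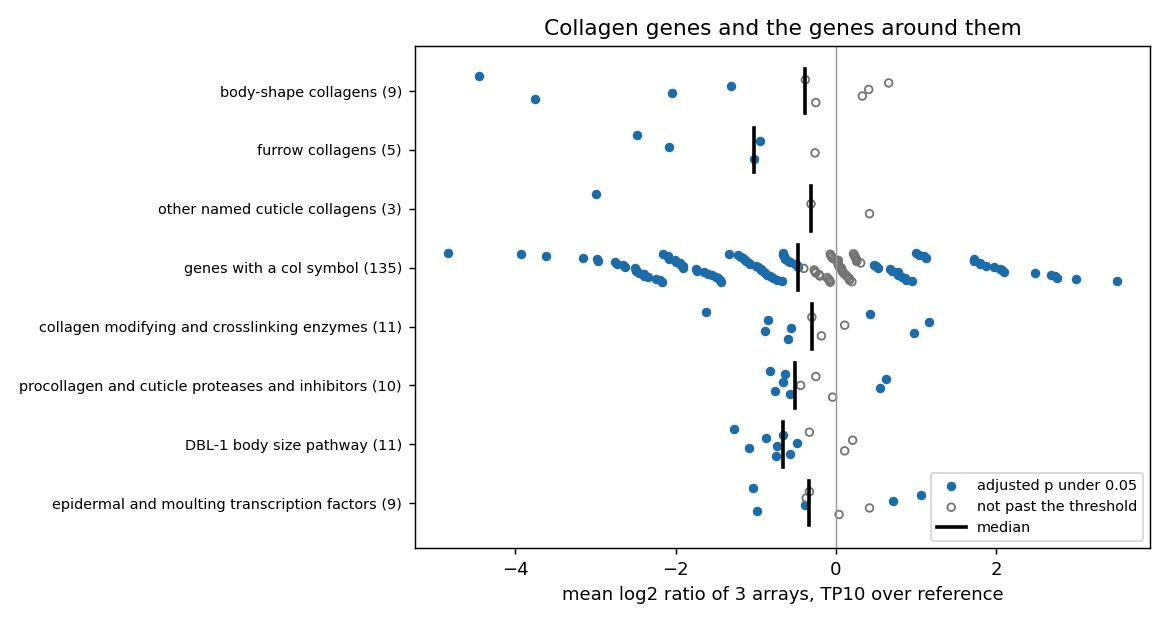
Mean log2 ratio over 3 arrays (horizontal axis) of each measured gene in the body-shape collagens and in 7 other lists, with the number measured in brackets. Filled points have an adjusted p under 0.05 (limma), open points do not, and black bars are list medians. The body-shape collagens spread from -4.46 to 0.66, while the DBL-1 pathway lies between -1.27 and 0.21.

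Genes closest to the ends of the order were found by Euclidean distance of the 3 array values, among 9241 genes with a symbol. Nearest to rol-8 were scl-2 at a distance of 0.58 log2, hsp-12.6 (a small heat shock gene) at 0.73 and the collagen gene col-36 at 0.78. Their means were -4.44 ± 0.15, -4.30 ± 0.73 and -4.84 ± 0.33 (SD, n = 3). Nearest to dpy-17 were the kinase gene wee-1.1 at a distance of 0.60, the nuclear receptor gene nhr-164 at 0.78 and the T-box gene tbx-11 at 0.79. All 3 of these also had their highest value on array 3, at 1.24, 1.05 and 1.10, as the distance requires. These are likenesses over 3 arrays and carry no test.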

How the data were processed

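The authors deposited 1 table of log2 ratios of the 2 channels of each array; the scale was read from the values, since at least 99.98% of them, raised as powers of 2, gave whole thousandths (tolerance 0.01 thousandths). Scanner processing is not given in the sources used here. The deposited medians were -0.00868, 0.0172 and 0.0101, so the ratios were already centred. Features were named through the platform annotation, with current symbols and chromosomes from RefSeq (assembly WBcel235); of 20000 features, 15655 had 1 gene, 198 several and 4147 were not listed, and 15569 matched a RefSeq gene. Values on all 3 arrays were required, features of a gene were averaged, and each array was centred on its median. The test of each mean against 0 was two-sided, by an intercept-only lmFit with eBayes (limma 3.58.1, R 4.3.3), adjusted by Benjamini-Hochberg over 19300 genes and features. The step was run on simulated data with noise drawn from the moderated variances of the fit itself. That run cannot show whether sharing variance between genes suits these arrays. The reference has no replicates of its own, and no dye swap is named, so its spread and a common dye bias are not in the error. The number of arrays limits the precision.

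Members and lists were chosen with earlier results of these data known. Named were all members, all furrow collagens, the 3 largest changes past the threshold in each other list, and the 3 genes nearest to the highest and the lowest member. Marker genes and those marked as chosen later are outside this rule. Of the listed genes, phy-4.1, crm-1 and elt-5 matched no current symbol. Array, preparation and day cannot be told apart. Sequences of the genes were not used here.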

Additional observations from a re-analysis of the deposited data

How the results depend on the processing

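Alternatives were values as deposited, centring on the mean, quantile normalization, scaling to one spread, values on at least 2 arrays, leaving out the 10% of genes of highest SD, features kept apart, robust eBayes, array weights, an unmoderated test, a 2-fold minimum and leaving out each preparation. The count of 4 lower members changed, among fits of all 9, only to 5 without preparation 3, which added sqt-3, and in the unmoderated test. The latter, with 2 residual degrees of freedom, called 0 members lower (3 at an unadjusted p under 0.05, namely rol-8, rol-6 and dpy-13), 1 gene or feature of all lower and 0 higher, and 0 genes of the 6 comparison lists lower and 0 higher. Against 0 higher members in the reported fit, 1 was higher after quantile normalization (lon-3, adjusted p = 0.0473, limma), 1 with array weights (dpy-17, adjusted p = 0.0405) and 0 to 1 without 1 preparation (dpy-17). Leaving out the genes of highest SD removed sqt-1, sqt-3 and dpy-17, put 2 members higher (lon-3 and dpy-5, adjusted p = 0.0114 and 0.0458), moved the median of the members to -1.14 and left 15 pairs in the main order of the 15 that remained. With the 2-fold minimum, 1602 of all genes and features were lower and 1600 higher, and 8 genes of the comparison lists were lower and 2 higher, from 26 and 7. No named or listed gene past the threshold turned its direction in any setting run. No paired analysis was possible because there is 1 group. A sequence comparison of the proteins was planned and not run.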
